A study of Arabidopsis thaliana with 12 samples.

Results

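The genes described here are 6 Arabidopsis thaliana genes of antioxidant defence, thioredoxin reduction and ascorbate synthesis: SRX (AT1G31170), PRXIIE (AT3G52960), CCS (AT1G12520), GLDH (AT3G47930), NTRC (AT2G41680) and FTRB (AT2G04700). They were chosen for their role in ascorbate and plastid redox metabolism, each was read by 1 probe listed with that gene alone, and they are 6 of the 691 loci that such probes name and of 3438 features in all. RNA of wild-type plants of the Columbia 0 ecotype was read on 12 arrays. Plants behind 6 arrays, called ascorbate arrays here, first stood in 2 µM staurosporine and afterwards in 25 mM ascorbate, each for 4 h. Plants behind the other 6, called staurosporine arrays, had water first and staurosporine second, each for 4 h, and for this staurosporine the labels state 25 mM, the figure they also give for ascorbate. A pH of 5.5 is stated for both. Both groups thus met staurosporine, a broad inhibitor of protein kinases, and differed in its timing, in ascorbate and possibly in the staurosporine dose. The labels name neither a tissue nor a plant age. They also do not say whether the 6 arrays of a group were separate cultures or plants, and every p-value therefore rests on differences between arrays that can be technical.

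Chloroplasts make hydrogen peroxide and superoxide in the light. Superoxide dismutases turn superoxide into hydrogen peroxide, and peroxiredoxins and ascorbate peroxidases then remove it. Peroxiredoxins are reduced again by thioredoxins and glutaredoxins, and thioredoxins take their electrons from ferredoxin through ferredoxin-thioredoxin reductase or from NADPH through an NADPH-dependent reductase. Ascorbate itself is completed in mitochondria and serves as the electron donor of the ascorbate peroxidases.

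The deposited intensities are linear values from 0 to 100 in units that are not stated. Of the 72 readings of the 6 genes, 1 was 0. The median probe read 0.351 to 0.486 on the ascorbate arrays, against 0.392 and 0.392 on staurosporine arrays 1 and 2 and 0.169 to 0.228 on staurosporine arrays 3 to 6. The median log2 change of all features on the deposited scale was therefore 0.72, and array medians were higher on the ascorbate arrays by 0.15, 1.04 and 1.09 log2 units in arrays 1 and 2, 3 and 4, and 5 and 6. Consecutive arrays of a group were each other's closest match for 12 of 12 arrays (Spearman correlation 0.889 to 0.983 across features), so values are also given for these 3 pairs. For ascorbate arrays 3 and 4 the margin was small: 0.8895 with each other, against 0.8862 and 0.8888 with the closest other array of the group. Log2 changes are ascorbate arrays minus staurosporine arrays after quantile normalization, which gives every array the same distribution, with a limma fit and Benjamini-Hochberg adjustment over all 3438 features, unless another scale is named. A reading of 0 was replaced by the smallest positive value of its array. That value was 2.05e-04 to 8.5e-04 on ascorbate arrays and 1.3e-05 to 2.9e-04 on staurosporine arrays. On the deposited scale SBPASE, at 0 on all 12 arrays, was therefore called higher (2.86, limma adjusted p = 0.00991). Shares of features called on that scale can include such probes. Of the lists of tissue markers, 3 of 10 photosynthetic and 0 of 5 root genes were measured, so the tissue could not be checked closely. The photosystem genes read 34.3 to 75.1 on the ascorbate arrays and 58.2 to 92 on the staurosporine arrays for PSBW, 0.559 to 0.931 and 0.626 to 0.778 for PSBY, and 0.462 to 0.609 and 0.227 to 0.648 for PSAN. In RNA of whole samples, fewer cells of a type and less RNA per cell cannot be told apart.

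None of the 6 genes passed in this fit, which called 28.1% of all features (adjusted p under 0.05), 14% as higher and 14.1% as lower. At an unadjusted p under 0.05, 1 of the 6 passed, GLDH, against 39.4% of all features. The sulfiredoxin gene SRX stood higher on the ascorbate arrays in each same-numbered pair and on each scale tried, and whether it passed depended on how its single reading of 0 was treated and on whether consecutive arrays counted separately. GLDH, PRXIIE and CCS averaged higher without passing, after normalization GLDH and PRXIIE in arrays 3 to 6 and CCS chiefly in arrays 1 and 2. NTRC and FTRB, the reductase genes, had changes whose direction depended on the scale. The median log2 change of the 6 was 0.44, against 0 for all features, and 1.47 against 0.72 on the deposited scale.

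**Figure D1:**
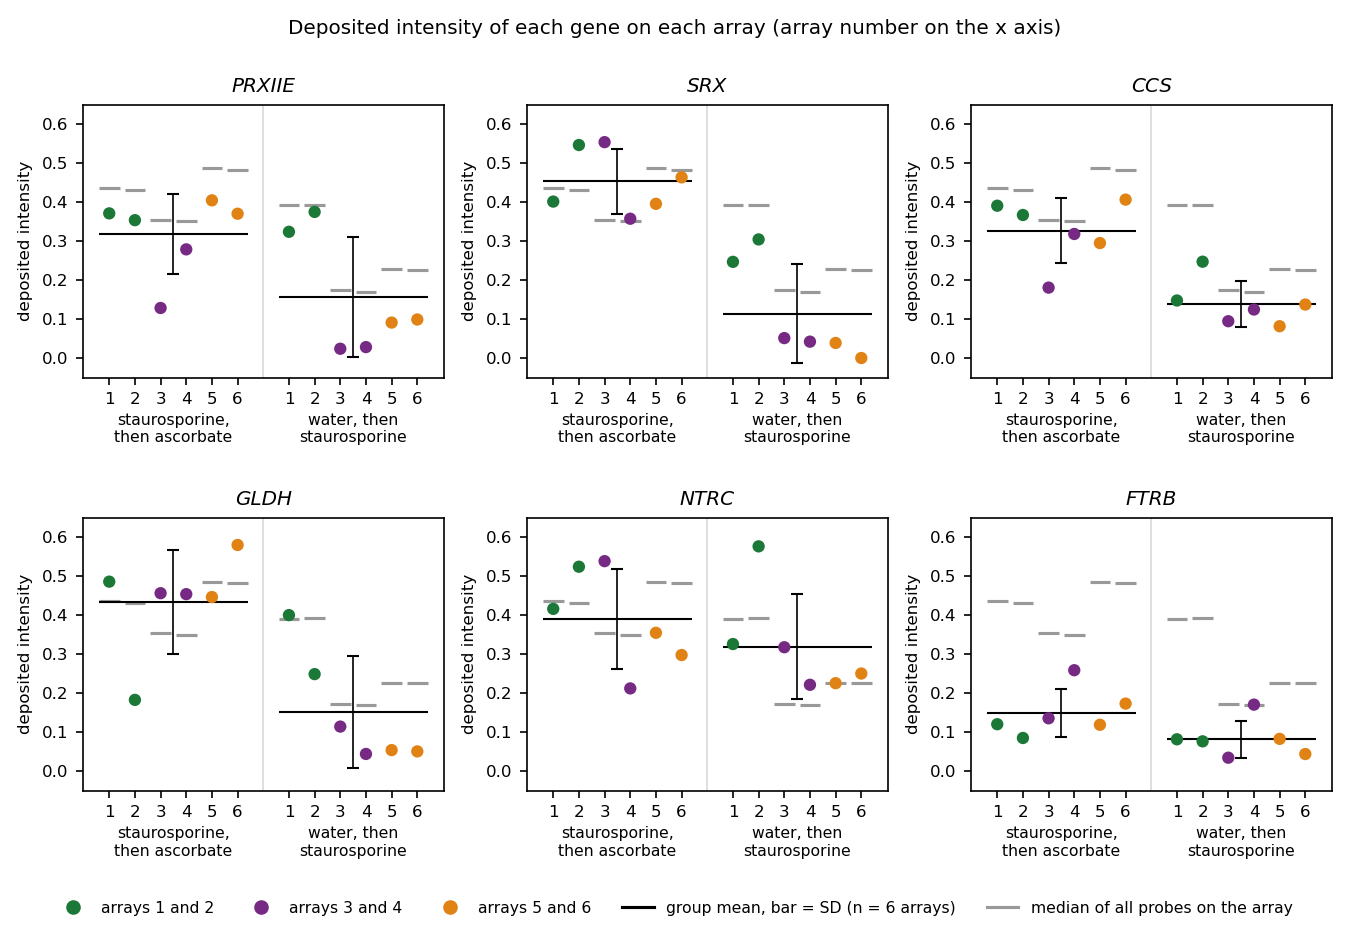
Deposited intensity (linear, unit not stated) of each of the 6 genes on the 6 ascorbate arrays (left) and the 6 staurosporine arrays (right), coloured by pair of consecutive arrays, with the group mean, its SD and, in grey, the median of all probes on each array. SRX is the only one of the 6 whose groups do not overlap, at 0.357 to 0.554 on the ascorbate arrays against 0 to 0.304 on the staurosporine arrays. Such a separation in this direction was seen for 13% of all features.

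SRX encodes sulfiredoxin, which repairs peroxiredoxins whose active-site cysteine has been overoxidised. SRX read 0.401, 0.546, 0.554, 0.357, 0.395 and 0.463 on ascorbate arrays 1 to 6, against 0.247, 0.304, 0.0511, 0.042, 0.0386 and 0 on staurosporine arrays 1 to 6. Every ascorbate reading was above every staurosporine reading, a separation seen in this direction for 13% of all features. The mean was 0.453 ± 0.0826 on ascorbate arrays and 0.114 ± 0.128 on staurosporine arrays (SD, n = 6 arrays), and over pair averages 0.453 ± 0.0223 and 0.114 ± 0.141 (SD, n = 3).

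The staurosporine arrays were not alike: arrays 1 and 2 read several times higher than arrays 3 to 6 for SRX. The array median was also higher there, and set against the median of its own array SRX stood at 91.8%, 127%, 156%, 102%, 81.3% and 95.9% on ascorbate arrays 1 to 6. The same share was 63%, 77.5%, 29.5%, 24.9%, 17% and 0% on staurosporine arrays 1 to 6. The ascorbate arrays thus placed SRX near the middle of the probes, and staurosporine arrays 3 to 6 placed it well below. Its percentile rank among the probes of its array averaged 51.9 ± 9.63 on ascorbate arrays and 25.6 ± 11.8 on staurosporine arrays (SD, n = 6), and was higher with ascorbate in 6 of 6 same-numbered pairs. A reading above that of the same-numbered staurosporine array in 6 of 6 pairs was seen for 27.3% of all features.

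The log2 change of SRX was 2.93 ± 1.58 (SE), with a 95% interval from −0.57 to 6.42 and a limma adjusted p of 0.202. It was 0.70 in arrays 1 and 2, 1.73 in arrays 3 and 4 and 6.34 in arrays 5 and 6. The last value rests on staurosporine array 6, where the reading of 0 was set to the smallest positive value of that array and became −12.55, against −3.95 on staurosporine array 5. With zeros left out as missing readings, which drops this 1 array for SRX, the log2 change was 1.43 (95% interval 0.68 to 2.19, limma adjusted p = 0.00914). With the floor set after scaling it was 1.41 (0.64 to 2.18, limma adjusted p = 0.0112), with a pseudocount of 0.05 it was 1.32 (limma adjusted p = 0.0218), and without staurosporine array 6 it was 1.297 (limma adjusted p = 0.0212). These fits called 18%, 16.2% and 16.3% of features as higher with zeros missing, with the later floor and with the pseudocount. The fit without staurosporine array 6 called 410 of 3438 features higher. Over pair averages SRX did not pass, with limma adjusted p-values of 0.102 with zeros missing and 0.154 with the later floor, where 0% (485 features at an unadjusted p under 0.05) and 2.24% of features were called higher. SRX thus passed when the 12 arrays counted separately and the zero was not taken at the array floor, and not when each pair counted as 1 value.

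**Figure D2:**
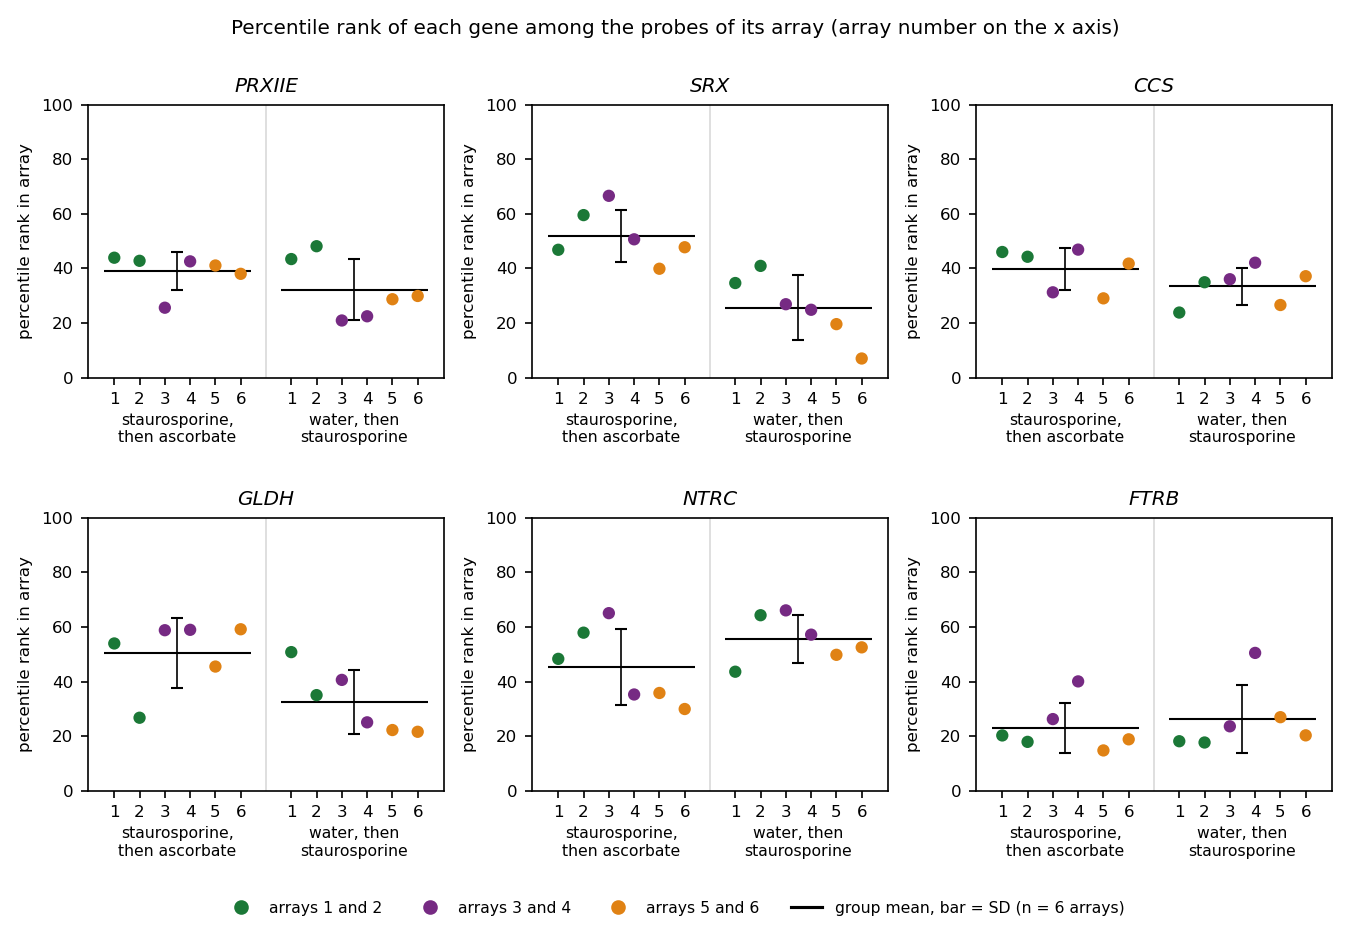
Percentile rank of each gene among the 3439 probes of its array, on the 6 ascorbate arrays (left) and the 6 staurosporine arrays (right), coloured by pair of consecutive arrays, with the group mean and SD. SRX averages 51.9 on the ascorbate arrays and 25.6 on the staurosporine arrays, while NTRC averages 45.4 and 55.6.

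PRXIIE encodes a type II peroxiredoxin of the chloroplast, which reduces hydrogen peroxide and organic peroxides. PRXIIE had a lowest, median and highest reading of 0.128, 0.362 and 0.404 on the ascorbate arrays, against 0.0238, 0.0948 and 0.375 on the staurosporine arrays. The groups overlapped, since staurosporine arrays 1 and 2 read 0.324 and 0.375, close to ascorbate arrays 1 and 2 at 0.371 and 0.354. The difference lay in the other arrays, where PRXIIE read 0.128, 0.279, 0.404 and 0.37 on ascorbate arrays 3 to 6, against 0.0238, 0.028, 0.0909 and 0.0987 on staurosporine arrays 3 to 6. The mean was 0.318 ± 0.102 on ascorbate arrays and 0.157 ± 0.153 on staurosporine arrays (SD, n = 6).

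After normalization the log2 change of PRXIIE was 0.52 ± 0.35 (SE), with a 95% interval from −0.26 to 1.29 and a limma adjusted p of 0.312. Normalization kept the order of the pairs: the change was −0.11 in arrays 1 and 2, 1.04 in arrays 3 and 4 and 0.61 in arrays 5 and 6. Relative to the array median it was −0.09, 1.83 and 0.94 in the same pairs. On the deposited scale with the array number as a block the change of 1.65 passed (limma adjusted p = 0.0412, in a fit that called 33.1% of features higher), and without the block it did not (0.0815).

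CCS encodes the chaperone that delivers copper to copper/zinc superoxide dismutases. CCS had a lowest, median and highest reading of 0.181, 0.342 and 0.406 on the ascorbate arrays, against 0.0816, 0.131 and 0.247 on the staurosporine arrays. The groups overlapped through ascorbate array 3, at 0.181, and staurosporine array 2, at 0.247. In 6 of 6 same-numbered pairs the ascorbate array read higher, as for 27.3% of all features. By percentile rank CCS was higher on the ascorbate array in 5 of 6 pairs. The means were 0.326 ± 0.083 on ascorbate arrays and 0.139 ± 0.0587 on staurosporine arrays (SD, n = 6).

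Set against other probes the difference was smaller. Relative to the array median the log2 change of CCS was 0.52 (95% interval 0.01 to 1.03, limma adjusted p = 0.098), and after quantile normalization it was 0.37 ± 0.25 (SE, limma adjusted p = 0.311). On the deposited scale it was 1.28 ± 0.29 (SE) and passed (limma adjusted p = 0.0082, in a fit that called 31.8% of features higher), though not over pair averages on that scale (limma adjusted p = 0.151), where 0.0291% of features were called higher. The normalized change was 0.95 in arrays 1 and 2, −0.04 in arrays 3 and 4 and 0.21 in arrays 5 and 6. CCS thus showed its largest normalized difference in arrays 1 and 2, the pair in which PRXIIE and GLDH showed values slightly below 0.

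GLDH encodes L-galactono-1,4-lactone dehydrogenase, the mitochondrial enzyme of the last step of ascorbate synthesis. GLDH read 0.486, 0.183, 0.457, 0.454, 0.447 and 0.581 on ascorbate arrays 1 to 6, against 0.401, 0.249, 0.115, 0.0445, 0.0543 and 0.051 on staurosporine arrays 1 to 6. From array 3 on, every ascorbate reading was above every staurosporine reading, while arrays 1 and 2 overlapped and ascorbate array 2 was the lowest of its group. The mean was 0.435 ± 0.133 on ascorbate arrays and 0.152 ± 0.144 on staurosporine arrays (SD, n = 6).

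The normalized log2 change of GLDH was 1.01 ± 0.41 (SE), with a 95% interval from 0.11 to 1.91 and a limma adjusted p of 0.0889 (unadjusted 0.0307). It was −0.22 in arrays 1 and 2, 1.303 in arrays 3 and 4 and 1.95 in arrays 5 and 6. Its percentile rank averaged 50.5 ± 12.8 on ascorbate arrays and 32.6 ± 11.7 on staurosporine arrays (SD, n = 6). With 1 array left out in turn, GLDH passed in 2 of 12 fits (limma adjusted p up to 0.173). These left out ascorbate array 2 (log2 change 1.28, limma adjusted p = 0.0281) or staurosporine array 1 (1.24, limma adjusted p = 0.0409). The former was the lowest and the latter the highest of its group, so leaving either out widened the difference. Those 2 fits called 455 and 481 of 3438 features higher. GLDH passed without arrays 1 and 2 of both groups (1.72, limma adjusted p = 0.0193, in a fit that called 13.6% of features higher). It also passed with zeros as missing readings (1.10, limma adjusted p = 0.0487), and without normalization its change of 1.96 passed (limma adjusted p = 0.0196). It did not pass over pair averages (limma adjusted p = 0.276), where 0.902% of features were called higher, or with zeros missing and the array number as a block (0.0666). Nor did it pass without arrays 3 and 4 of both groups (0.76, limma adjusted p = 0.325) or without arrays 5 and 6 (0.57, limma adjusted p = 0.522).

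**Figure D3:**
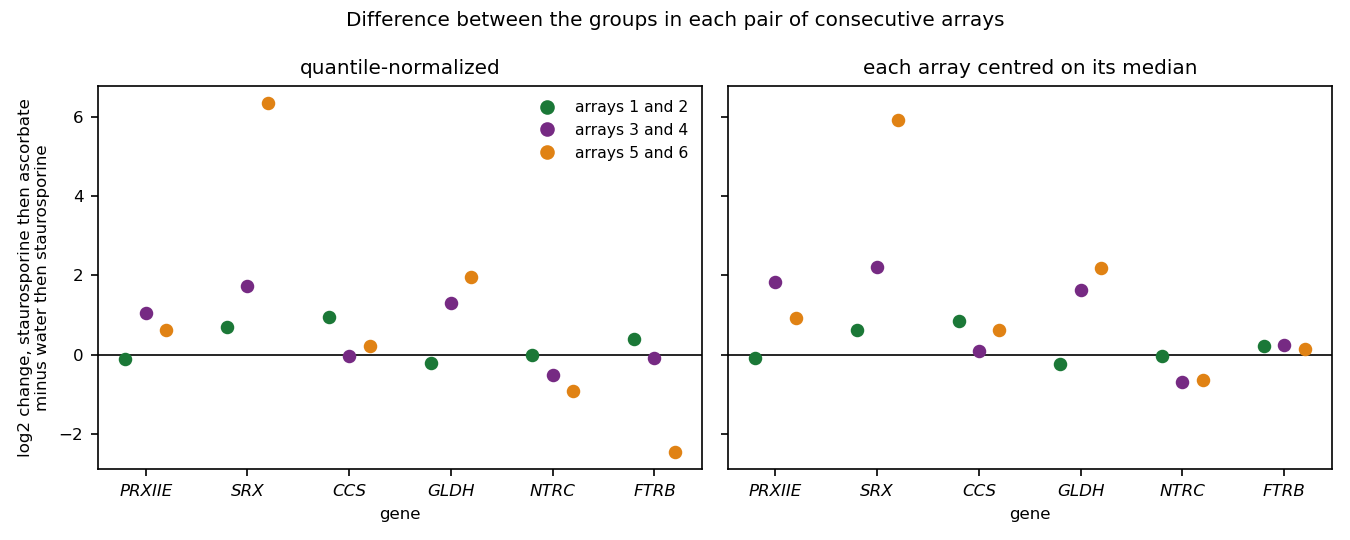
Log2 change of each gene (ascorbate arrays minus staurosporine arrays) in arrays 1 and 2, 3 and 4, and 5 and 6, after quantile normalization (left) and with each array centred on its median (right). SRX is above 0 in all 3 pairs on both scales, while FTRB in arrays 5 and 6 lies at −2.45 on the left and 0.15 on the right.

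NTRC encodes the plastid NADPH-dependent thioredoxin reductase that carries its own thioredoxin domain and reduces chloroplast peroxiredoxins. NTRC had a lowest, median and highest reading of 0.213, 0.386 and 0.539 on the ascorbate arrays, against 0.222, 0.284 and 0.577 on the staurosporine arrays. The groups covered nearly the same range, with means of 0.391 ± 0.128 on ascorbate arrays and 0.32 ± 0.134 on staurosporine arrays (SD, n = 6). Against the median of its array NTRC stood at 60.6% to 152% on ascorbate arrays and 83.4% to 184% on staurosporine arrays.

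The log2 change of NTRC was −0.49 ± 0.29 (SE), with a 95% interval from −1.14 to 0.17 and a limma adjusted p of 0.258, and it was 0.30 on the deposited scale (limma adjusted p = 0.44). The normalized change was −0.02 in arrays 1 and 2, −0.53 in arrays 3 and 4 and −0.91 in arrays 5 and 6. By rank NTRC was lower on the ascorbate array in 5 of 6 same-numbered pairs, with mean percentiles of 45.4 ± 14 on ascorbate arrays and 55.6 ± 8.66 on staurosporine arrays (SD, n = 6). None of the scales tried called NTRC.

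FTRB encodes the catalytic subunit of ferredoxin-thioredoxin reductase, which passes electrons from ferredoxin to plastid thioredoxins. FTRB had a lowest, median and highest reading of 0.0854, 0.128 and 0.259 on the ascorbate arrays, against 0.0349, 0.0794 and 0.171 on the staurosporine arrays. The groups overlapped, although the ascorbate array read higher in 6 of 6 same-numbered pairs, as for 27.3% of all features. By percentile rank FTRB was higher on the ascorbate array in 3 of 6 pairs. The means were 0.149 ± 0.0611 on ascorbate arrays and 0.082 ± 0.0482 on staurosporine arrays (SD, n = 6).

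The direction for FTRB depended on the scale. Its log2 change was −0.72 ± 0.84 (SE) after quantile normalization, with a 95% interval from −2.58 to 1.14 (limma adjusted p = 0.563). It was 0.20 ± 0.46 (SE) relative to the array median and 0.96 ± 0.39 (SE) on the deposited scale, with limma adjusted p-values of 0.75 and 0.0704. The probe lay low on its arrays, at a mean percentile of 23 ± 9.17 on ascorbate arrays and 26.2 ± 12.4 on staurosporine arrays (SD, n = 6), near the 10.3% to 17.3% of probes listed at 0. Close readings were set far apart there: ascorbate array 5 read 0.119 and became −7.42, whereas ascorbate array 1 read 0.121 and became −3.77. Without arrays 5 and 6 of both groups the normalized change was 0.18 (limma adjusted p = 0.957).

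**Figure D4:**
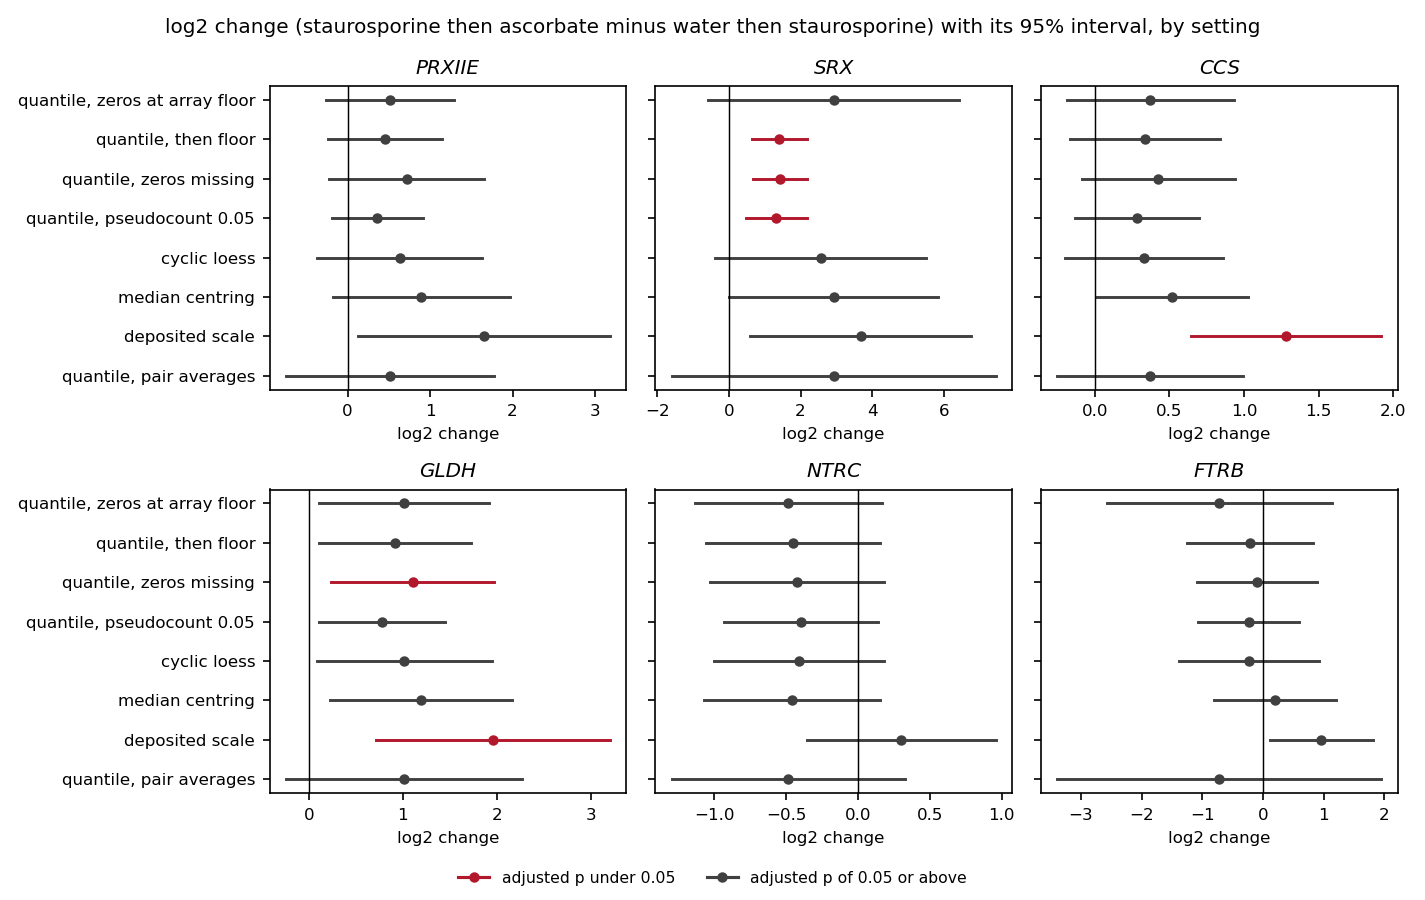
Log2 change of each gene (ascorbate arrays minus staurosporine arrays) with its 95% interval under 7 treatments of scale and zeros and over pair averages, in red where the limma adjusted p over all features is under 0.05. SRX passes under the 3 treatments that do not set its 0 to the floor of its array, CCS and GLDH pass on the deposited scale, GLDH also with zeros missing, and PRXIIE, NTRC and FTRB under none of the 8 settings.

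Readings of these genes differed between consecutive arrays by more than the median gap of all features without a zero in 27 of 35 cases. Those features were not matched to the 6 genes in intensity, so the count is not a trait of these genes alone. FTRB differed 4.91-fold between staurosporine arrays 3 and 4 (0.0349 and 0.171), a wider gap than that of 97.6% of the 2540 features without a zero. GLDH differed 2.66-fold between ascorbate arrays 1 and 2 (0.486 and 0.183), wider than 97.1% of those features, and 2.58-fold between staurosporine arrays 3 and 4. NTRC differed 2.54-fold between ascorbate arrays 3 and 4 (0.539 and 0.213) and 1.77-fold between staurosporine arrays 1 and 2. That median gap was 0.14 to 0.29 log2 units in the 6 pairs of arrays. The residual SD after normalization was 0.45 log2 units for CCS, 0.53 for NTRC, 0.63 for PRXIIE, 0.73 for GLDH, 1.51 for FTRB and 2.85 for SRX. The median over features without a zero was 0.43, whereas the value for SRX includes its reading of 0 at the array floor. The 95% interval of the log2 change accordingly reached 0.56 to either side for CCS, the narrowest of the 6, and 3.497 for SRX, the widest.

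How far the 6 genes varied together over the arrays depended on the scale. On the deposited scale, which carries the array-wide differences, 14 of the 15 pairs of genes had a positive Spearman correlation, in a range from −0.28 to 0.783. After normalization, SRX and GLDH had the highest correlation, 0.713 over 12 arrays, and 0.427 for deviations from the group means. PRXIIE and FTRB had the lowest, −0.636 (0.182 on the deposited scale), and the other 13 pairs lay between −0.448 and 0.357. These are descriptions over arrays that share groups and pairs.

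Among 553 other named loci with at most 1 zero, the closest in normalized pattern over the 12 arrays were AT2G28755 (Spearman rho 0.951), AT5G42070 (0.923) and AT2G19870 (0.916) for SRX, and AT2G22050 (0.937), AT4G09040 (0.897) and AT2G19870 (0.888) for GLDH. AT2G19870 thus stood in both sets. For deviations from the group means the 3 correlations with SRX were 0.524, 0.58 and 0.469, and those with GLDH were 0.902, 0.69 and 0.727, so the likeness to SRX included the difference between the groups. For PRXIIE the closest were AT4G17070 (0.852), AT2G48090 (0.79) and AT2G37000 (0.762), and for CCS they were AT5G52530 (0.783), AT4G16410 (0.741) and AT1G72020 (0.72). For NTRC they were AT4G13200 (0.76), AT4G24910 (0.72) and AT2G39360 (0.706), and for FTRB AT5G47890 (0.776), AT3G26630 (0.772) and AT1G50510 (0.769). The highest of many correlations over 12 arrays is large by selection, and the arrays share groups and pairs.

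Of 99 loci listed for ascorbate synthesis and recycling, superoxide dismutases and catalases, peroxiredoxins and glutathione peroxidases, thioredoxins and their reductases, glutathione and glutaredoxins, and thioredoxin-regulated plastid enzymes, 10 had a probe of their own and 11 more were only on probes listed with several genes. The 10 are the 6 genes above and 4 thioredoxin-regulated enzymes of 11 listed. No ascorbate peroxidase or enzyme of ascorbate recycling (0 of 18) and none for glutathione (0 of 6) was measured that way. Of the 10, 1 was called higher and 0 lower, where 14% and 14.1% of all features were called, so the count lay no higher than the background. Their median log2 change was 0.44, against 0 for all features. GLDH, NADP-MDH and CHLM had an unadjusted p under 0.05 (0.0307, 0.00337 and 0.0201 in the limma fit), 3 of 10 against 39.4% of all features.

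NADP-MDH (AT5G58330), the chloroplast malate dehydrogenase that thioredoxin switches on, was the one called. NADP-MDH had a lowest, median and highest reading of 0.517, 0.589 and 0.765 on the ascorbate arrays, against 0.0482, 0.152 and 0.33 on the staurosporine arrays. The groups did not overlap, as for 13% of all features in this direction on the deposited scale. The log2 change of NADP-MDH was 1.45 ± 0.39 (SE, limma adjusted p = 0.0182), at 1.10, 1.18 and 2.07 in the 3 pairs, and it was called whichever 1 array was left out. Over pair averages it did not pass (limma adjusted p = 0.205). CHLM, a methyltransferase of chlorophyll synthesis, had a log2 change of 0.52 and PRK, the phosphoribulokinase of the Calvin cycle, one of −0.31 (limma adjusted p = 0.064 and 0.14), while SBPASE was listed at 0 on all 12 arrays.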

How the data were processed

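The deposited table holds linear intensities of 3439 probes on 12 arrays. No label or header says how they were scaled, background-corrected or normalized, or on which scanner they were read. Groups and array numbers were taken from the labels. Probes were named through the platform annotation. Of 692 probes with 1 gene, 690 matched the TAIR10.1 gene table by Entrez number, and probes of 1 locus were averaged. A deposited intensity of 0 was replaced by the lowest value above 0 on the same array. Log2 values were then quantile-normalized, because the array medians of the deposited log2 intensities spanned 1.53, and tested with limma 3.58.1 in R 4.3.3. The fit was tested on simulated data. The 6 genes, the lists and the tests were chosen with earlier results of these data known.

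Deviations from the group means correlated between same-numbered arrays at 0.106 to 0.347 (limit 0.1). On this ground array numbers were treated as pairs in the comparisons of same-numbered arrays and in the fits with the array number as a block. The labels do not state such pairing, and the main fit used no block. For number 5, at 0.106, the staurosporine array did not correlate best with the ascorbate array of its own number. Named besides the 6 genes were the 3 loci closest to each in Spearman correlation, and, from each list, the measured loci that passed and up to 4 others by smallest p. The number of arrays limits the precision. Alternatives concerned the normalization, the zeros, the filter on dim features (dimmest 25%), the block, pair averages, the variance prior, array weights and arrays left out.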

Additional observations from a re-analysis of the deposited data

Results flagged for a closer look

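Of 24 sets of 6 readings (6 genes, 2 groups, deposited and normalized values), 6 held a reading far from the rest by Dixon's criterion. Chance alone gives about 1 in 20 for independent, normally distributed readings. The sets are not independent, since deposited and normalized values come from the same readings and consecutive arrays are alike, so no excess over chance can be read from the count. GLDH on ascorbate array 2 read 0.183, against 0.447 for the next lowest of its group, and was also apart after normalization, at −2.92 against −1.83. PRXIIE on ascorbate array 3 was at −3.04 on the normalized log2 scale, against −2.18 for the next. SRX on staurosporine array 6 was at −12.55 after normalization, where its reading of 0 had been set to the array floor, against −3.95 for the next. NTRC on staurosporine array 2 read 0.577, against 0.326 for the next highest. FTRB on staurosporine array 4 read 0.171, against 0.0832 for the next highest.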

How the results depend on the processing

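Of 33 other settings for each gene, 8 were added after their data had been seen (those that combine 2 choices or leave a pair of arrays out of both groups). The other 25 were planned before the fits, but with earlier results of these data known. PRXIIE, SRX, CCS and GLDH kept a positive change in all 33 settings, but in several of these the sign could not turn. On the quantile-normalized scale with zeros at the floor, the dim filter, blocks, pair averages and variance prior leave the change itself as in the main fit. For PRXIIE it was 0.515 in each of them. None of the 6 genes passed in any fit of pair averages. With 1 array left out in turn, changes were 0.31 to 0.72 for PRXIIE, 1.297 to 3.38 for SRX, 0.23 to 0.51 for CCS, 0.83 to 1.28 for GLDH, −0.66 to −0.34 for NTRC and −1.08 to −0.07 for FTRB, and 402 to 481 features were higher and 387 to 497 lower, against 480 and 486 with all arrays. SRX passed with a pseudocount (1.32), with zeros missing (1.43, and 1.45 with array number as replicate block), with the floor after scaling (1.41) and without arrays 5 and 6 of both groups (1.28, adjusted p = 0.035). CCS (1.28) and GLDH (1.96) passed on the deposited scale with and without that block (limma adjusted p = 0.00725 and 0.0481 with it), and PRXIIE with it (1.65). GLDH also passed with zeros missing (1.10) and without arrays 1 and 2 (1.72), but not without arrays 3 and 4 (0.76) or arrays 5 and 6 (0.57). NTRC turned to 0.30 on the deposited scale, alike with that block and over pair averages. FTRB turned to 0.96 in the same 3 fits, to 0.20 after median centring and to 0.18 without arrays 5 and 6. On the quantile-normalized scale with zeros at the floor, the array number as a block changed no call among the 6 (limma adjusted p = 0.132 to 0.481).

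Counts of features higher and lower were 1093 and 208 on the deposited scale (1138 and 203 with the block), 515 and 755 after median centring, 296 and 262 with consecutive arrays as a random block, and 299 and 295 without arrays 5 and 6. Over pair averages they were 31 and 22, 77 and 70 with the floor after scaling, 1 and 0 with the pair as a block (limma, 358 and 355 at an unadjusted p under 0.05), 1 and 0 on the deposited scale (796 and 117) and 0 and 0 with zeros missing (485 and 407). Apart from what the settings themselves change (fewer values, another scale), the cause was not tested. The precision for SRX and FTRB depended on how low readings were treated. The SE of SRX was 1.58 with its zero at the floor and 0.34 with zeros missing. FTRB had no reading of 0, and after quantile normalization its SE was 0.84 with zeros at the floor and 0.45 with zeros missing. Without normalization, on the deposited scale, the SE of FTRB was 0.39.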
